A study of Caenorhabditis elegans with 20 samples.

Results

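The genes described here are the antimicrobial peptide and protein families of Caenorhabditis elegans that are named by number in WormBase: saposin-like proteins (spp), antibacterial factors (abf), caenacins (cnc), fungus-induced proteins (fip), their relatives (fipr) and invertebrate-type lysozymes (ilys). Members were taken by symbol alone, and 90 of the 46925 genes in the table belonged to these 6 families: 31 spp, 29 fipr, 11 cnc, 7 fip, 6 abf and 6 ilys genes. A mean normalized count of at least 2 over the 20 libraries was reached by 61 members, which were tested among 17090 genes in all. RNA was sequenced from whole dauer larvae, the non-feeding diapause stage, in 4 groups of 5 biological replicates. All animals carried daf-2(e1370), an insulin receptor mutation that makes larvae arrest as dauers at 25°C, and daf-16(ot853[daf-16::mNG::AID]), in which the FoxO transcription factor DAF-16 bears a fluorescent tag and a degron. Strain OH17582 had in addition otSi2[ges-1p::TIR1(F79G)], which makes the TIR1(F79G) ubiquitin ligase adaptor in the intestine under the *ges-1* promoter, and strain OH14654 had none. In each strain, animals grew for 3 days at 25°C either on 100 µM 5-Ph-IAA, the ligand that lets TIR1(F79G) bind the degron, or on 0.2% ethanol as solvent. The experimental condition had TIR1(F79G) and 5-Ph-IAA, the no TIR1 control had 5-Ph-IAA alone, the no auxin control had TIR1(F79G) alone, and the last group had neither component. About 24000 animals made up a sample, and animals that were not dauers had been picked off.

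Saposin-like proteins share a small helical fold with the mammalian saposins and with the amoebapores, and those called caenopores open pores in bacterial membranes. Invertebrate-type lysozymes cut the peptidoglycan of the bacterial cell wall, and antibacterial factors are cysteine-rich peptides that resemble defensins. Caenacins and fungus-induced proteins are small secreted peptides, several of which are known for induction in the epidermis by fungal infection. In adult *daf-2* mutants, DAF-16 is known to raise the expression of several antimicrobial genes in the intestine.

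The experimental condition changed 20 of the 61 tested members against the no TIR1 control (10 higher and 10 lower) and 19 against the no auxin control (8 higher and 11 lower). A member counted as called where limma across all genes gave an adjusted p-value under 0.05 and the change was at least 1.5-fold. Among all 17090 genes, 9.17% were called against the no TIR1 control (6.78% higher and 2.39% lower) and 8.88% against the no auxin control (6.61% higher and 2.26% lower), whereas the members reached 32.8% and 31.1%. Of the calls against the no TIR1 control among all genes, 73.9% were higher. The median log2 fold change of the 61 members was -0.11 against the no TIR1 control and -0.19 relative to the no auxin control, beside -0.01 and -0.02 over all genes tested. Against both controls, 8 members rose and 7 fell, and no member was called in opposite directions. These 15 were 24.6% of the tested members, beside 6.78% of all genes (5.27% higher and 1.52% lower). The comparisons share the 5 experimental libraries, so a call against both is not 2 independent results.

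**Figure D1:**
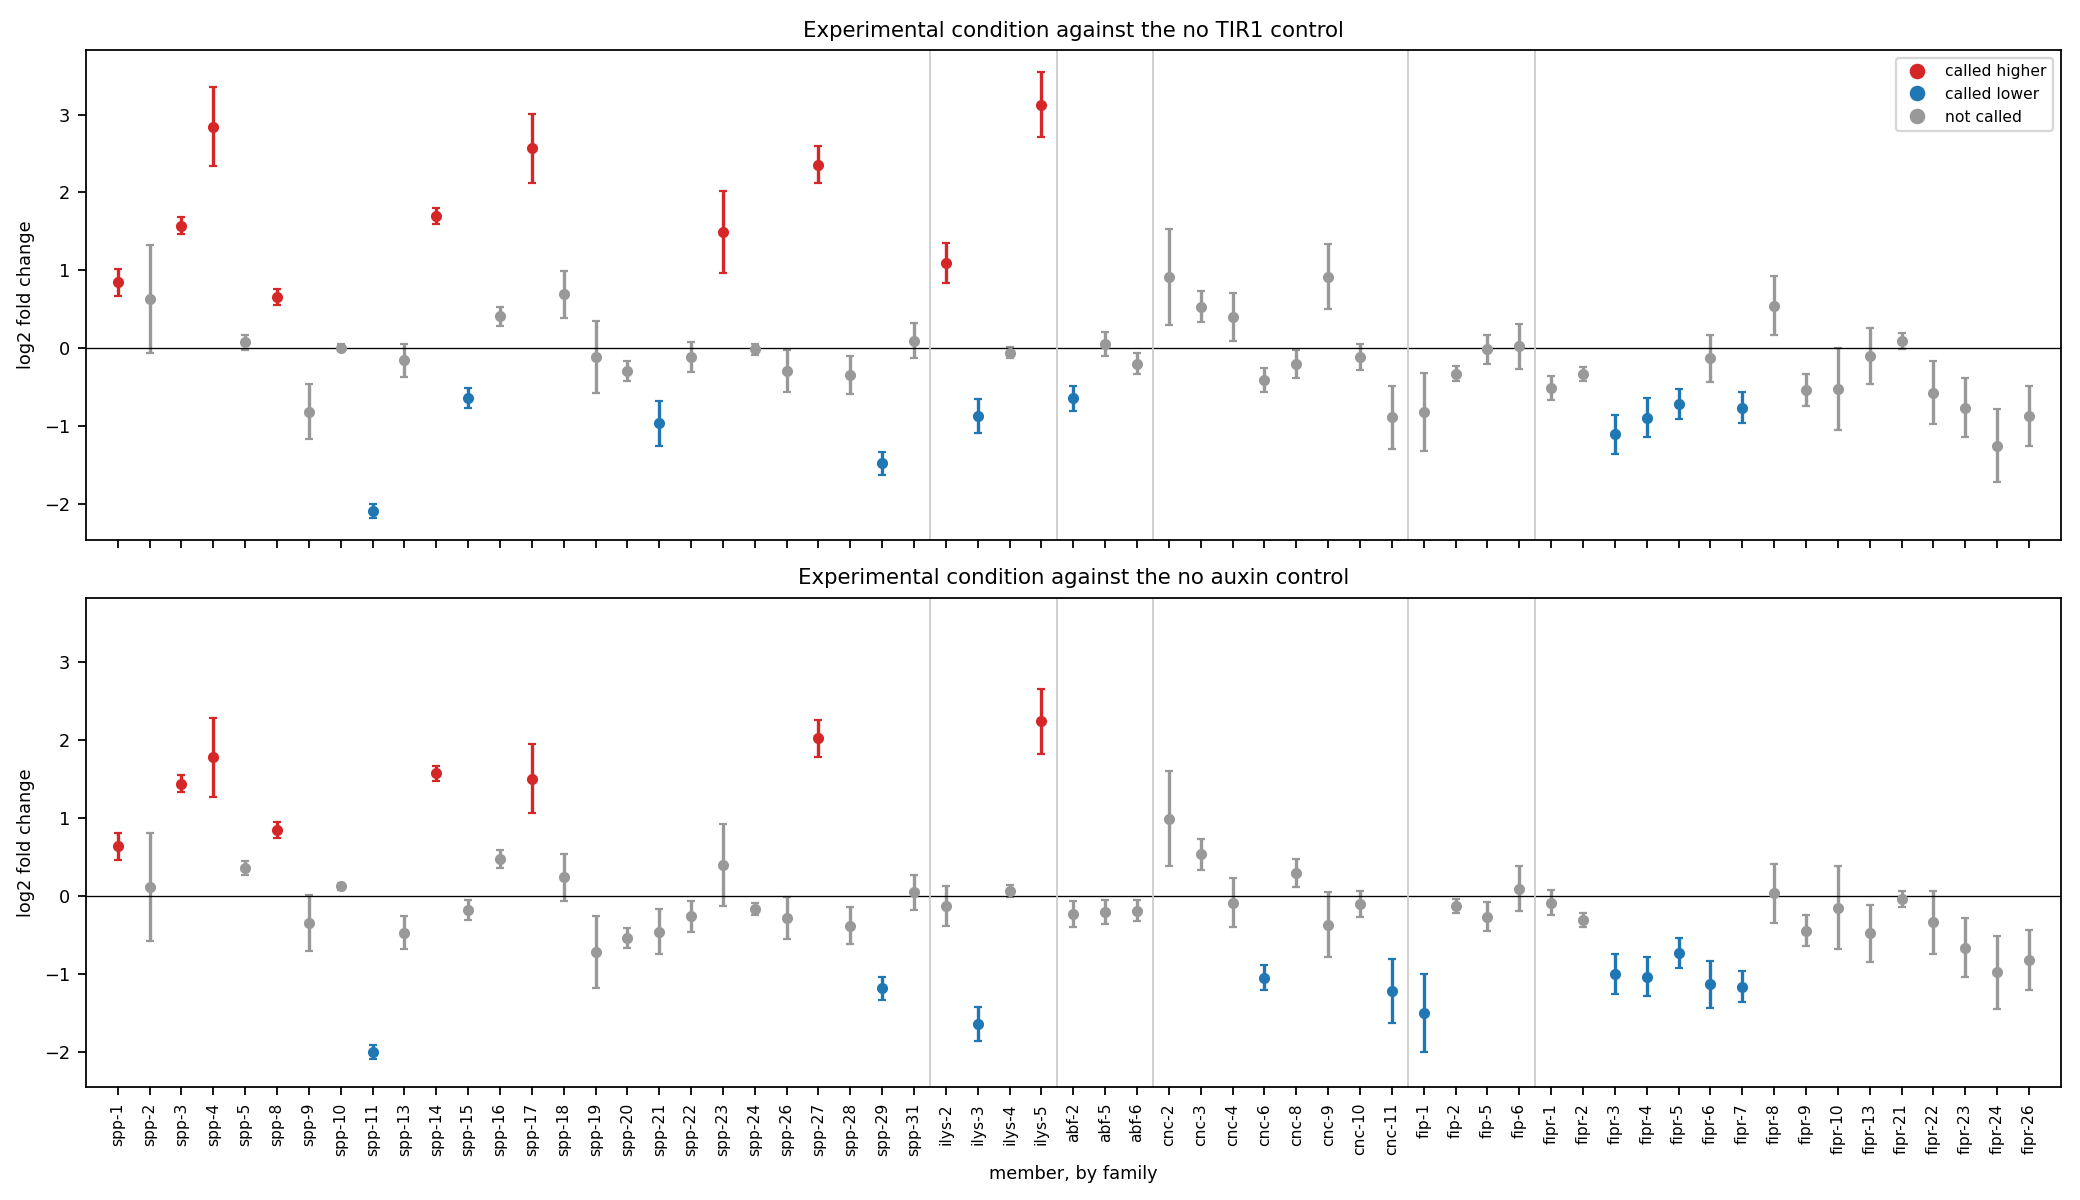
Log2 fold change (vertical axis) of each of the 61 tested members (horizontal axis, by family) in the experimental condition, relative to the no TIR1 control (top) and the no auxin control (bottom). Points are limma estimates on log2(normalized count + 1), bars are standard errors, and colour marks the call. Higher calls lie in the spp and ilys families, and no fipr member was called higher.

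Families differed in the direction of their called members. Of 26 tested spp genes, 8 rose and 4 fell against the no TIR1 control, and 7 rose and 2 fell against the no auxin control. Of 16 tested fipr genes, 0 rose (by limma, edgeR or DESeq2, and with 0 higher at an unadjusted p-value under 0.05), 4 fell against the no TIR1 control and 5 relative to the no auxin control, with median log2 fold changes of -0.55 and -0.58. Of 4 tested ilys genes, 2 rose and 1 fell against the no TIR1 control, and 1 rose and 1 fell against the no auxin control. No caenacin was called against the no TIR1 control by limma, edgeR or DESeq2 (4 of 8 had an unadjusted p-value under 0.05), and 2 of 8 fell against the no auxin control. The abf and fip families had 1 call each, both lower, and each against a single control. Differences between families were not tested.

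Levels are compared between genes as normalized counts per kilobase of exon. In the mean of the 15 control libraries, *spp-11* was highest at 3143 per kb, followed by *spp-5* at 2189, *spp-10* at 1327, *cnc-6* at 1188, *fipr-2* at 1056 and *spp-14* at 716.4. *spp-5* encodes the pore-forming caenopore-5, and *spp-10* resembles the mammalian saposin precursor. Over the control libraries *spp-11* ranged from 2711 to 3709 per kb and *spp-5* from 1730 to 2631, without overlap. The ranges of *spp-10* (1142 to 1452), *cnc-6* (800.0 to 1888) and *fipr-2* (843.9 to 1188) overlapped, so the order of these 3 did not hold beyond the spread between libraries. The place of *spp-14* (551.4 to 950.3) did not hold either. Its range overlapped those of *cnc-6* and *fipr-2*, and those of *fip-2* (536.4 to 811.0) and *spp-21* (207.4 to 1420), which had lower means. In the experimental condition *spp-5* was highest at 2521 per kb (2223 to 2932), *spp-14* was next at 2063 (1850 to 2305, overlapping *spp-5*), and *spp-11*, first in the controls, had fallen to 762.7 per kb (654.8 to 939.5). That range overlapped those of *fipr-2* (712.1 to 1064), *spp-3* (796.7 to 975.8) and *cnc-6* (420.0 to 963.9), so the order of these 4 genes in the experimental condition did not hold beyond the spread. In the 15 control libraries *spp-11* made up 30.3% to 37.7% of the summed normalized counts of all 90 members, and in the experimental libraries 9.52% to 12.7%.

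**Figure D2:**
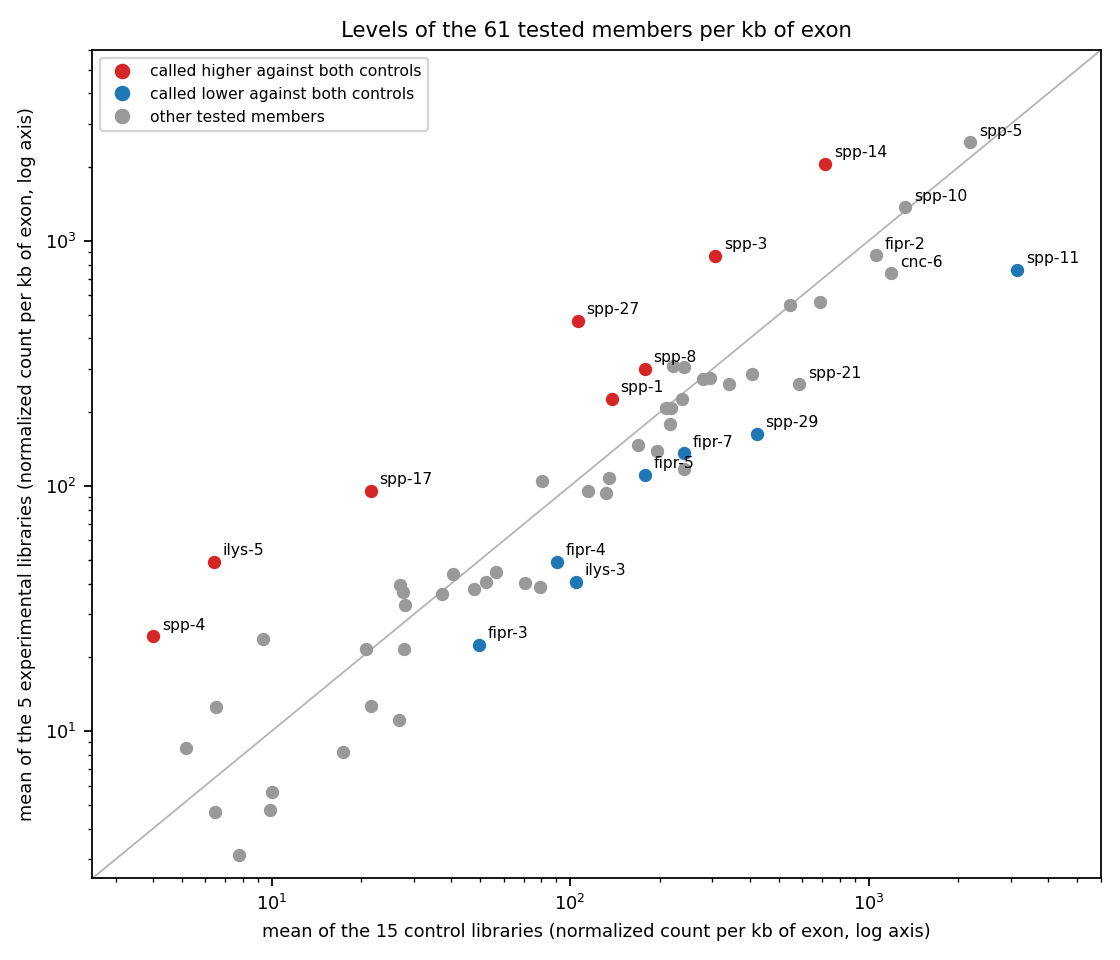
Mean normalized count per kb of exon of the 61 tested members in the 5 experimental libraries (vertical, log axis) against the 15 control libraries (horizontal, log axis), with equal levels on the grey line. *spp-11* lies highest among the controls (3143 per kb) and below the line, whereas *spp-14* and *spp-3* lie above it.

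Summed over all 90 members, the normalized count was 10680 to 12760 in the 15 controls and 8804 to 9613 in the experimental libraries, so the groups did not overlap. Without *spp-11* the order turned: the sum of the other 89 members was 7047 to 8240 in the controls and 7925 to 8394 in the experimental libraries, with overlap. Among spp genes other than *spp-11*, the sum was 4239 to 5451 in the controls and 5566 to 5940 in the experimental libraries.

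*spp-11* (chromosome II, 6405388 to 6407379, minus strand, WBcel235) showed the largest fall of any member. Its normalized counts were 4317, 3718, 4345, 3519 and 4623 with neither component, 4150, 3925, 4379, 3650 and 4814 in the no TIR1 control, and 3631, 3776, 4097, 3738 and 4516 in the no auxin control, against 878.8, 954.1, 1048, 849.9 and 1219 in the experimental condition. Every experimental library lay below every control library. The log2 fold change was -2.08 ± 0.09 (SE) against the no TIR1 control and -2.0 ± 0.09 relative to the no auxin control, that is 4.24-fold and 4.01-fold lower (limma adjusted p = 3.5e-15 and 7.6e-15).

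*spp-29* (chromosome V, 17696125 to 17696853, minus strand) was the other spp gene that fell against both controls. Its counts were 180.9, 135.4, 165.3, 157.6 and 214.7 with neither component, 192.3, 159.4, 158.0, 149.9 and 200.9 in the no TIR1 control, 136.7, 148.5, 145.6, 111.9 and 159.1 in the no auxin control, and 43.4, 64.2, 54.5, 60.1 and 90.2 in the experimental condition. The 5 experimental values lay below all 15 control values. It had log2 fold changes of -1.48 ± 0.15 and -1.19 ± 0.15 (limma adjusted p = 3.1e-08 and 1.2e-06).

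Of the 8 members that rose against both controls, 7 were saposin-like genes. *spp-14* (chromosome X, 7725979 to 7726383, plus strand) had counts of 301.6, 261.3, 267.6, 315.2 and 299.0 with neither component, 246.1, 202.8, 196.3, 255.0 and 231.6 in the no TIR1 control, 212.5, 249.4, 220.9, 338.3 and 227.8 in the no auxin control, and 740.5, 658.7, 702.1, 820.5 and 750.9 in the experimental condition. The lowest experimental library was above the highest control library, the no auxin replicate 4. Log2 fold changes were 1.70 ± 0.10 and 1.57 ± 0.10 (limma adjusted p = 1.8e-12 and 8.4e-12).

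*spp-3*, which encodes a pore-forming caenopore of the intestine, lies on chromosome X from 7314969 to 7315353 on the minus strand. It had 102.8, 102.0, 119.6, 99.7 and 106.2 normalized counts with neither component, 87.1, 93.0, 111.6, 85.0 and 124.0 in the no TIR1 control, 102.0, 131.3, 94.1, 110.7 and 108.7 in the no auxin control, and 306.3, 284.4, 288.5, 273.3 and 334.7 in the experimental condition. The experimental values were again above every control value, and the control groups overlapped each other. Its log2 fold changes were 1.57 ± 0.11 and 1.44 ± 0.11 (limma adjusted p = 1.9e-11 and 9.7e-11).

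*spp-27* (chromosome V, 6556653 to 6557135, minus strand) had the largest log2 fold change of the tested saposin-like genes against the no auxin control, on the log2(normalized count + 1) scale. Its counts were 58.1, 31.1, 26.8, 51.2 and 39.3 with neither component, 38.6, 26.6, 38.3, 36.3 and 38.4 in the no TIR1 control, 45.9, 45.7, 55.5, 75.0 and 20.6 in the no auxin control, and 209.9, 197.6, 184.9, 168.1 and 168.8 in the experimental condition. No control value came near the experimental ones. Its log2 fold changes were 2.36 ± 0.24 and 2.02 ± 0.24 (limma adjusted p = 3.2e-08 and 4.6e-07). The gene lies within the span of *twk-10*, a potassium channel gene on the opposite strand, and shares 0 exonic bases with it. For *twk-10* itself they were -0.43 and -0.65 (limma adjusted p = 0.11 and 0.012), so it was called lower against the no auxin control.

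*spp-8* (chromosome IV, 8481664 to 8483621, plus strand) changed less. It had 202.2, 206.4, 253.5, 230.3 and 252.8 normalized counts with neither component, 259.7, 213.5, 237.9, 229.2 and 291.2 in the no TIR1 control, 195.6, 183.7, 198.1, 268.4 and 239.2 in the no auxin control, and 397.2, 354.1, 373.3, 462.5 and 360.9 in the experimental condition. The experimental libraries lay above every control library, and the control groups overlapped each other. Its log2 fold changes were 0.66 ± 0.10 and 0.85 ± 0.10 (limma adjusted p = 2.9e-05 and 7.7e-07).

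*spp-1*, which encodes the caenopore-1 with known antibacterial activity, lies on chromosome III from 10355098 to 10355668 on the minus strand. Its counts were 71.5, 55.0, 85.0, 91.6 and 73.9 with neither component, 53.0, 56.7, 88.0, 49.7 and 81.7 in the no TIR1 control, 68.3, 61.9, 79.2, 89.0 and 75.5 in the no auxin control, and 82.0, 106.4, 117.7, 131.2 and 154.3 in the experimental condition. Replicate 1 of the experimental condition lay within the controls and the other 4 lay above all of them. The log2 fold changes were 0.84 ± 0.18 and 0.63 ± 0.18 (limma adjusted p = 0.00079 and 0.011), and the call against the no auxin control was lost without the no auxin replicate 2 (0.57) or without the experimental replicate 5 (0.53).

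*spp-17* and *spp-4* rose from low levels. For *spp-17*, on chromosome I, the counts were 2.23, 11.95, 6.30, 1.35 and 11.6 with neither component, 7.57, 6.20, 4.07, 2.87 and 3.84 in the no TIR1 control, 3.74, 15.2, 11.9, 12.7 and 16.02 in the no auxin control, and 28.9, 22.02, 23.5, 41.7 and 58.2 in the experimental condition. All experimental values were above the controls, from 20 to 61 reads a library. The log2 fold changes were 2.57 ± 0.44 and 1.51 ± 0.44 (limma adjusted p = 0.00011 and 0.017). The call against the no auxin control was lost without the no auxin replicate 1 (1.18) or without the experimental replicate 5 (1.30).

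For *spp-4* (chromosome X, 7318239 to 7318756, minus strand) the counts were 3.35, 1.59, 0, 0 and 2.31 with neither component, 0, 0, 0, 1.91 and 1.92 in the no TIR1 control, 1.87, 0.95, 1.98, 1.27 and 8.01 in the no auxin control, and 8.84, 7.34, 10.8, 12.3 and 11.6 in the experimental condition. The no auxin replicate 5 reached the range of the experimental libraries, and the other controls were at or below 3 reads. The log2 fold changes were 2.84 ± 0.51 and 1.78 ± 0.51 (limma adjusted p = 0.00017 and 0.014), and at such counts they depend on the constant added before taking logs: with 5 in place of 1 they were 1.40 and 1.01.

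The lysozyme *ilys-5* (chromosome X, 6533490 to 6536840, minus strand) had the largest log2 fold change of the tested members on the log2(normalized count + 1) scale, which understates changes from few reads. The ratio of group means in the comparison with the no TIR1 control was larger for *spp-4* (means of 0.77 and 10.2) than for *ilys-5* (6.33 and 63.1). Its counts were 7.82, 4.78, 1.57, 1.35 and 12.7 with neither component, 5.30, 10.6, 3.26, 6.69 and 5.77 in the no TIR1 control, 8.42, 10.5, 7.92, 20.4 and 16.02 in the no auxin control, and 37.0, 46.5, 60.5, 95.7 and 75.7 in the experimental condition. The experimental libraries did not overlap the controls. Log2 fold changes were 3.13 ± 0.41 and 2.24 ± 0.41 (limma adjusted p = 3.0e-06 and 0.00026).

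Lysozyme *ilys-3*, known for lysis of Gram-positive bacteria in the worm's gut, moved the other way. It lies on chromosome IV from 2464456 to 2465443 on the plus strand and had counts of 53.6, 44.6, 58.3, 56.6 and 60.0 with neither component, 35.6, 42.5, 42.4, 23.9 and 38.4 in the no TIR1 control, 44.9, 79.0, 58.4, 80.1 and 54.9 in the no auxin control, and 22.5, 11.6, 14.8, 22.6 and 29.1 in the experimental condition. The highest experimental library passed the lowest no TIR1 library, and the other controls were all higher. Log2 fold changes were -0.87 ± 0.22 and -1.64 ± 0.22 (limma adjusted p = 0.0044 and 2.6e-06).

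The 4 fipr genes that fell against both controls had low to moderate counts and all overlapped the controls. *fipr-3* (chromosome X, 14423405 to 14423883, plus strand) had 24.6, 21.5, 29.9, 17.5 and 19.6 with neither component, 23.5, 23.03, 18.7, 19.1 and 18.3 in the no TIR1 control, 27.2, 13.3, 18.8, 24.2 and 14.9 in the no auxin control, and 9.65, 16.5, 7.40, 8.20 and 5.82 in the experimental condition. Replicate 2 of the experimental condition was the one library within the control range. Its log2 fold changes were -1.10 ± 0.25 and -1.0 ± 0.25 (limma adjusted p = 0.0021 and 0.0052).

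The other 3 lie in a cluster on chromosome V. *fipr-4* had 27.9, 31.1, 33.1, 21.6 and 45.0 counts with neither component, 28.0, 33.7, 35.0, 30.6 and 28.8 in the no TIR1 control, 24.3, 44.7, 31.7, 39.4 and 36.6 in the no auxin control, and 31.4, 18.96, 12.8, 17.1 and 8.73 in the experimental condition. Here the experimental replicate 1 stood at the control level and the other 4 fell below all controls, with log2 fold changes of -0.89 ± 0.25 and -1.04 ± 0.25 (limma adjusted p = 0.012 and 0.0036).

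*fipr-5* had 72.6, 72.5, 94.5, 49.8 and 63.5 counts with neither component, 67.4, 78.8, 74.9, 63.0 and 60.6 in the no TIR1 control, 76.8, 81.9, 69.3, 59.8 and 61.8 in the no auxin control, and 65.9, 52.6, 33.6, 38.9 and 26.2 in the experimental condition. The experimental replicates 1 and 2 lay among the controls. Its log2 fold changes were -0.72 ± 0.19 and -0.74 ± 0.19 (limma adjusted p = 0.0077 and 0.0070), and both calls were lost without the experimental replicate 5 (-0.56 and -0.58).

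*fipr-7* had 64.8, 51.8, 66.1, 35.0 and 45.0 counts with neither component, 81.8, 62.9, 78.2, 44.9 and 67.3 in the no TIR1 control, 78.6, 99.9, 80.2, 68.7 and 114.5 in the no auxin control, and 33.8, 45.3, 40.4, 26.6 and 49.5 in the experimental condition. The group with neither component and the no TIR1 control overlapped the experimental libraries, whereas the no auxin control was entirely above them. The log2 fold changes were -0.76 ± 0.20 and -1.16 ± 0.20 (limma adjusted p = 0.0059 and 9.1e-05).

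**Figure D3:**
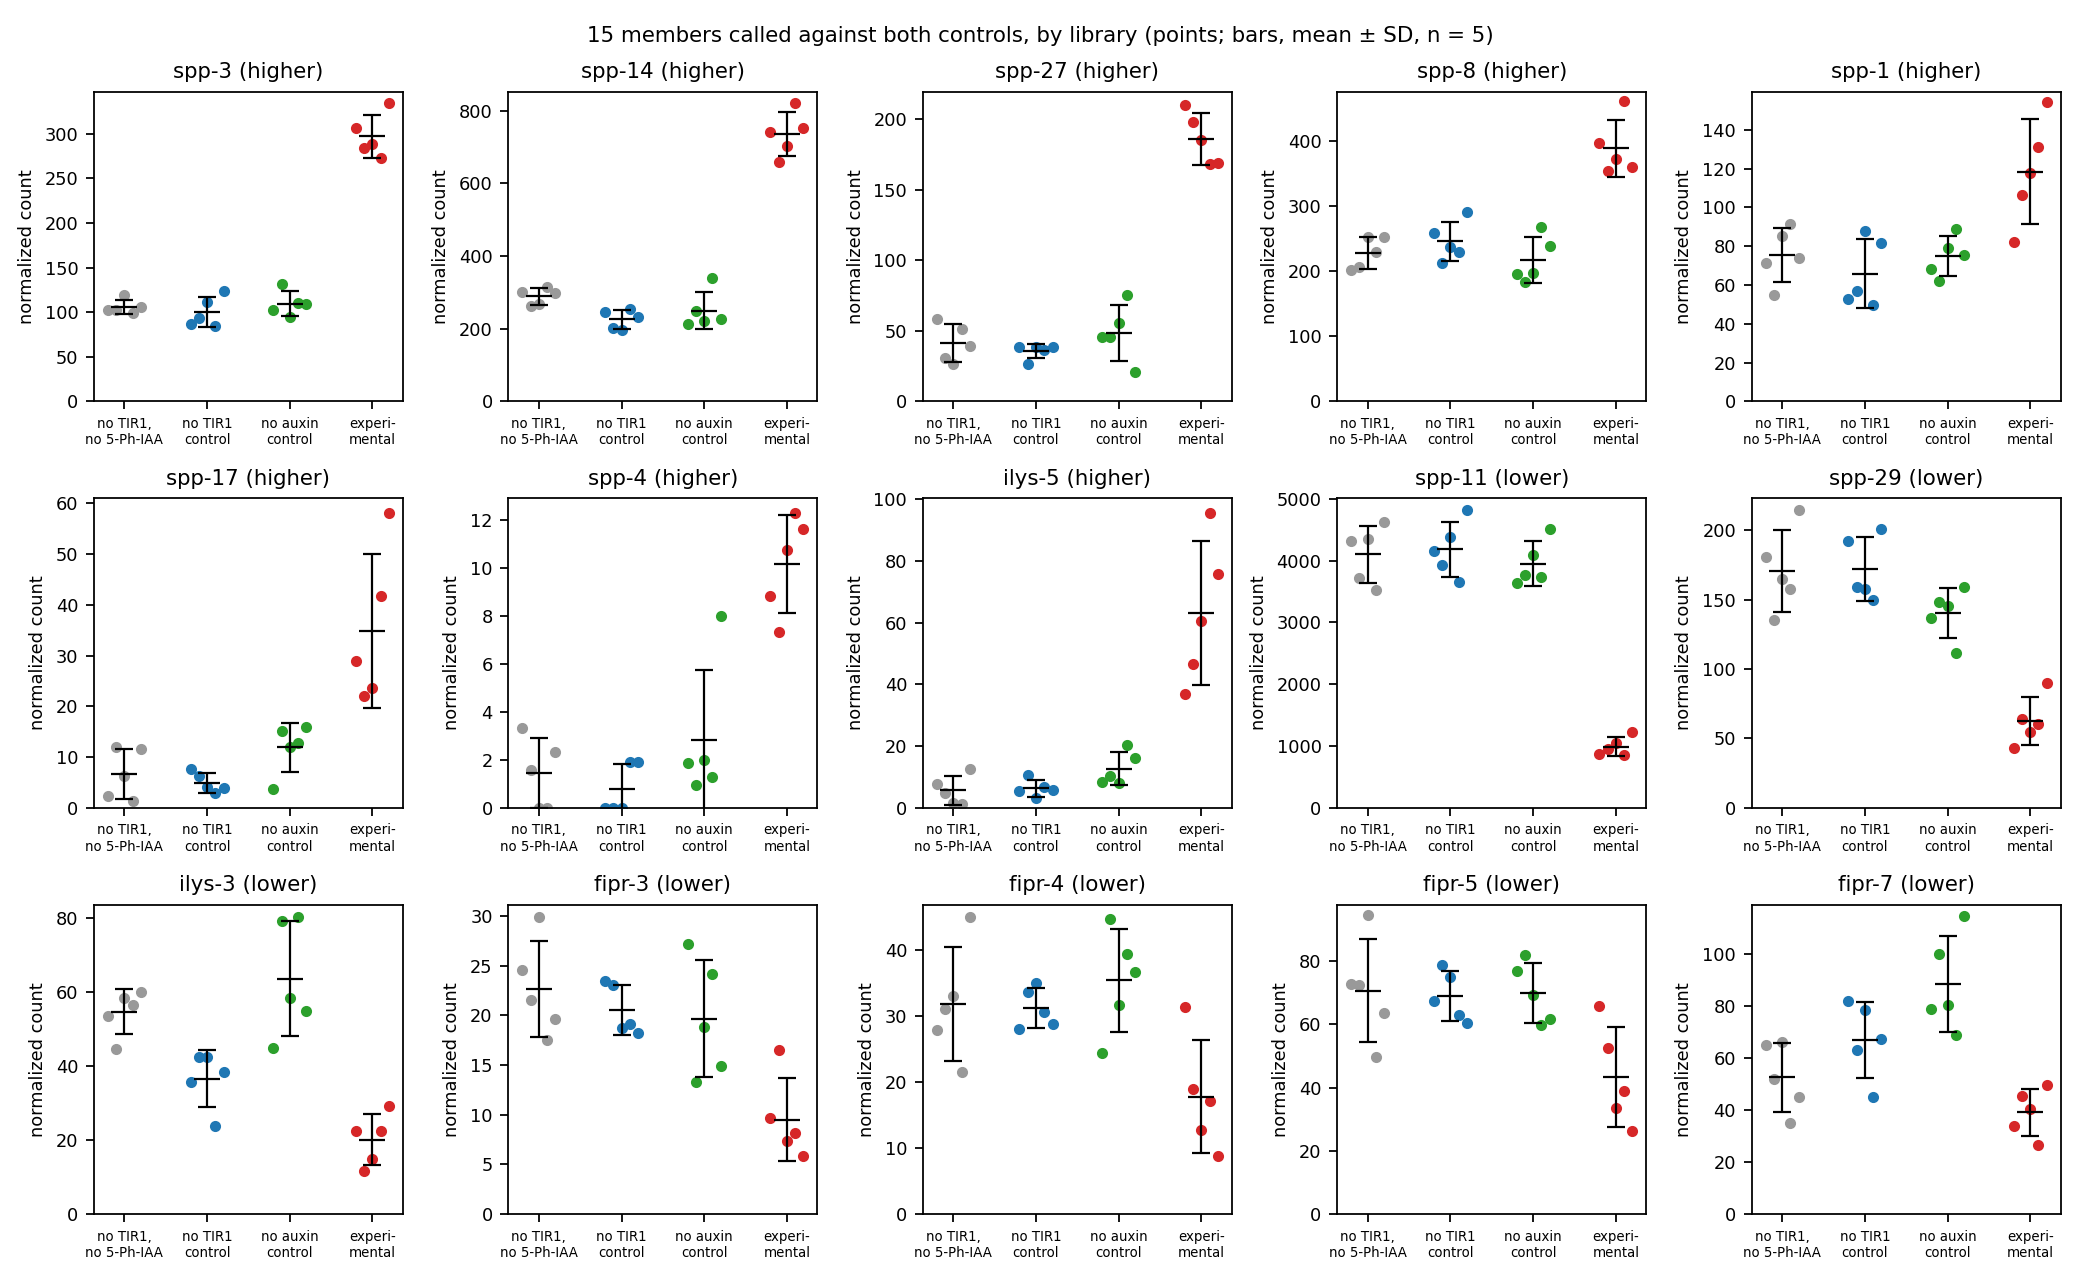
Normalized counts (vertical axes from 0) of the 15 members called against both controls, with 1 point per library in the 4 groups and bars for the mean and SD of 5 replicates. The experimental libraries lie clear of all 15 controls in 8 panels (*spp-3*, *spp-14*, *spp-27*, *spp-8*, *spp-17*, *ilys-5*, *spp-11* and *spp-29*).

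In all, 6 of the 61 members had every experimental library above all 15 controls (4.53% of all genes) and 2 had every experimental library below them (2.50% of all genes). These were *ilys-5*, *spp-3*, *spp-8*, *spp-14*, *spp-17* and *spp-27* above, and *spp-11* and *spp-29* below.

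Another 9 members were called against a single control. Against the no TIR1 control, *ilys-2* rose (log2 fold change 1.09 ± 0.26, limma adjusted p = 0.0029) and *spp-23* rose from few reads (1.5 ± 0.53, adjusted p = 0.046), while *abf-2*, an antibacterial factor, fell (-0.64 ± 0.17, adjusted p = 0.0058), as did *spp-15* (-0.64 ± 0.13, adjusted p = 0.00076) and *spp-21* (-0.96 ± 0.29, adjusted p = 0.017). Against the no auxin control, *cnc-6* (-1.05 ± 0.16, adjusted p = 2.2e-05), *cnc-11* (-1.22 ± 0.41, adjusted p = 0.036), *fip-1* (-1.51 ± 0.50, adjusted p = 0.036) and *fipr-6* (-1.14 ± 0.30, adjusted p = 0.0081) fell. The difference between these comparisons equals the difference between the no auxin and the no TIR1 control, which passed an adjusted p-value of 0.05 (limma) for 2 of the 61 members and 1.28% of all genes. They were *ilys-2*, with means of 25.0 in the no TIR1 and 58.2 in the no auxin control (adjusted p = 0.012), and *cnc-6*, with 439.1 and 689.3 (adjusted p = 0.042). For the other 7 the difference between controls did not pass.

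Several of these calls rested on individual libraries. The call of *spp-23* was lost in 12 of 20 fits that each left out 1 library, with log2 fold changes of 1.15 to 1.80. For *cnc-11*, 7 of 20 such fits lost the call (-1.49 to -0.98), and for *fip-1* 6 of 20 did (-1.84 to -1.16). edgeR and DESeq2 did not call *fip-1*, and DESeq2 did not call *cnc-11*. *abf-2* lost its call without the no TIR1 replicate 5 (-0.57) or the experimental replicate 5 (-0.58), and *spp-21* without the no TIR1 replicate 4 (-0.81). Of the 24 members called against either control, *spp-15* shares the most exon sequence with a gene on the opposite strand: 42.9% of its exonic bases lie on C48E7.6, whose log2 fold changes were -0.21 and -0.26. Reads from such a pair cannot be told apart where the counting does not use strand, and the strand setting is not given in the sources used here. Paralogs in the fipr and spp families may also share reads, since the treatment of reads that map to several places is not given either.

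In the comparisons of a single component with neither, limma without a replicate block called no member. For 5-Ph-IAA alone, 0 of 61 were called by limma, by edgeR and by DESeq2, and 7 had an unadjusted p-value under 0.05 (4.89% of all genes had one, and 0.0293% were called). For TIR1(F79G) alone, 0 were called by limma and edgeR and 1 by DESeq2 (*fipr-7*, log2 fold change 0.76, adjusted p = 0.014), and 17 members had an unadjusted p-value under 0.05 (10.5% of all genes had one, and 0.246% were called). *spp-21* had means of 260.3 with neither component, 164.3 in the no TIR1 control, 124.0 in the no auxin control and 81.1 in the experimental condition. For TIR1(F79G) alone this gene had a value of -1.14 ± 0.29 (limma adjusted p = 0.072), on the log2 scale, beside -0.96 for the experimental condition relative to the no TIR1 control. With the replicate number as a block, limma called *spp-21* (adjusted p = 0.00011), *spp-9* (-0.97, adjusted p = 0.0012) and *fipr-7* (0.75, adjusted p = 0.0050) for TIR1(F79G) alone. The effect of 5-Ph-IAA with TIR1(F79G) minus its effect without it, the interaction, was called for 13 members, 8 positive and 5 negative (6.73% of all genes, 5.22% positive and 1.52% negative). It was called for 11 of the 15 members called against both controls, with the largest negative value in *spp-11* (-2.03 ± 0.13, adjusted p = 1.8e-11) and positive values of 1.92 ± 0.14 for *spp-14* (adjusted p = 3.3e-10) and 1.53 ± 0.15 for *spp-3* (adjusted p = 4.0e-08). The caenacin *cnc-3* was called in the interaction alone (0.95 ± 0.28, adjusted p = 0.027), with means of 128.9 ± 35.0 with neither component, 95.8 ± 23.9 and 96.0 ± 27.7 in the single controls and 135.2 ± 7.96 in the experimental condition (SD, n = 5). For *ilys-5* and *spp-4* the interaction lost its call in 13 and 15 of 20 fits that left out 1 library, for *spp-1* in 6, for *cnc-3* in 5, and for *ilys-3* in 1, without the no auxin replicate 2 (-0.97). Without that same library, 8 members kept the interaction call.

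Several of the most abundant members differed little. *spp-10* had means of 2055 ± 79.9, 2070 ± 86.4, 1919 ± 120 and 2083 ± 70.3 (SD, n = 5) with neither component, in the no TIR1 control, the no auxin control and the experimental condition, with log2 fold changes of 0.01 and 0.12 whose 95% intervals were -0.08 to 0.09 and 0.04 to 0.20. *spp-5* had log2 fold changes of 0.08 and 0.36, the latter with an adjusted p of 0.0074 but under 1.5-fold. *fipr-2*, the most abundant fipr member, was lower by less than 1.5-fold against both controls (-0.33 and -0.31, limma adjusted p = 0.0085 and 0.012), and *fip-2* against the no TIR1 control (-0.33, adjusted p = 0.012). The values were 0.09 and -0.04 for *fipr-21*, -0.06 and 0.06 for *ilys-4*, -0.01 and -0.27 for *fip-5*, 0.06 and -0.20 for *abf-5* and -0.20 and -0.19 for *abf-6*, none past an adjusted p of 0.05.

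Some members that lie side by side had unlike fold changes and others had similar ones. Pairs of tested members with at most 10000 bases between them numbered 25, and those in clusters that hold called members are described, chosen after their values were seen and without a test of the difference between neighbours. On chromosome X, from 7314969 to 7320354, *spp-3*, *spp-2*, *spp-6*, *spp-4* and *spp-5* follow each other. There *spp-3* and *spp-4* rose against both controls, *spp-5* stayed under 1.5-fold, *spp-2* had uncalled values of 0.63 ± 0.70 and 0.11 ± 0.70, and *spp-6* was below the count minimum. On chromosome V, from 6556653 to 6561692, *spp-27* rose while *spp-20* (-0.29 and -0.54), *spp-26* (-0.29 and -0.29) and *spp-19* (-0.11 and -0.72) were not called, although only 479 bases separate *spp-27* from *spp-20*.

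On chromosome IV, from 2464456 to 2471449, *ilys-3* fell against both controls and its neighbour *ilys-2* rose against the no TIR1 control, with 2234 bases between them. Against the no auxin control *ilys-2* had an uncalled value of -0.13. *spp-10* and *spp-8* lie 1007 bases apart, and *spp-8* alone was called. Of the 6 tested fipr genes between 10220981 and 10239961 on chromosome V, *fipr-5*, *fipr-4* and *fipr-7* fell against both controls, *fipr-6* fell against the no auxin control, *fipr-9* had uncalled values of -0.54 and -0.45, and *fipr-8* had 0.55 and 0.03. In the caenacin cluster on chromosome V (1442342 to 1450183), *cnc-11* fell against the no auxin control and *cnc-4*, *cnc-3* and *cnc-2* had uncalled values between -0.09 and 0.99. *spp-17* and *spp-23*, with 1666 bases between them on chromosome I, were both called higher in the comparison with the no TIR1 control (2.57 and 1.5), and relative to the no auxin control *spp-17* was called (1.51) and *spp-23* was not (0.39). *spp-9* and *spp-21* lie 1926 bases apart on chromosome X and had similar values, -0.81 and -0.96 in the first comparison, where *spp-21* alone was called, and -0.35 and -0.46 in the second.

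**Figure D4:**
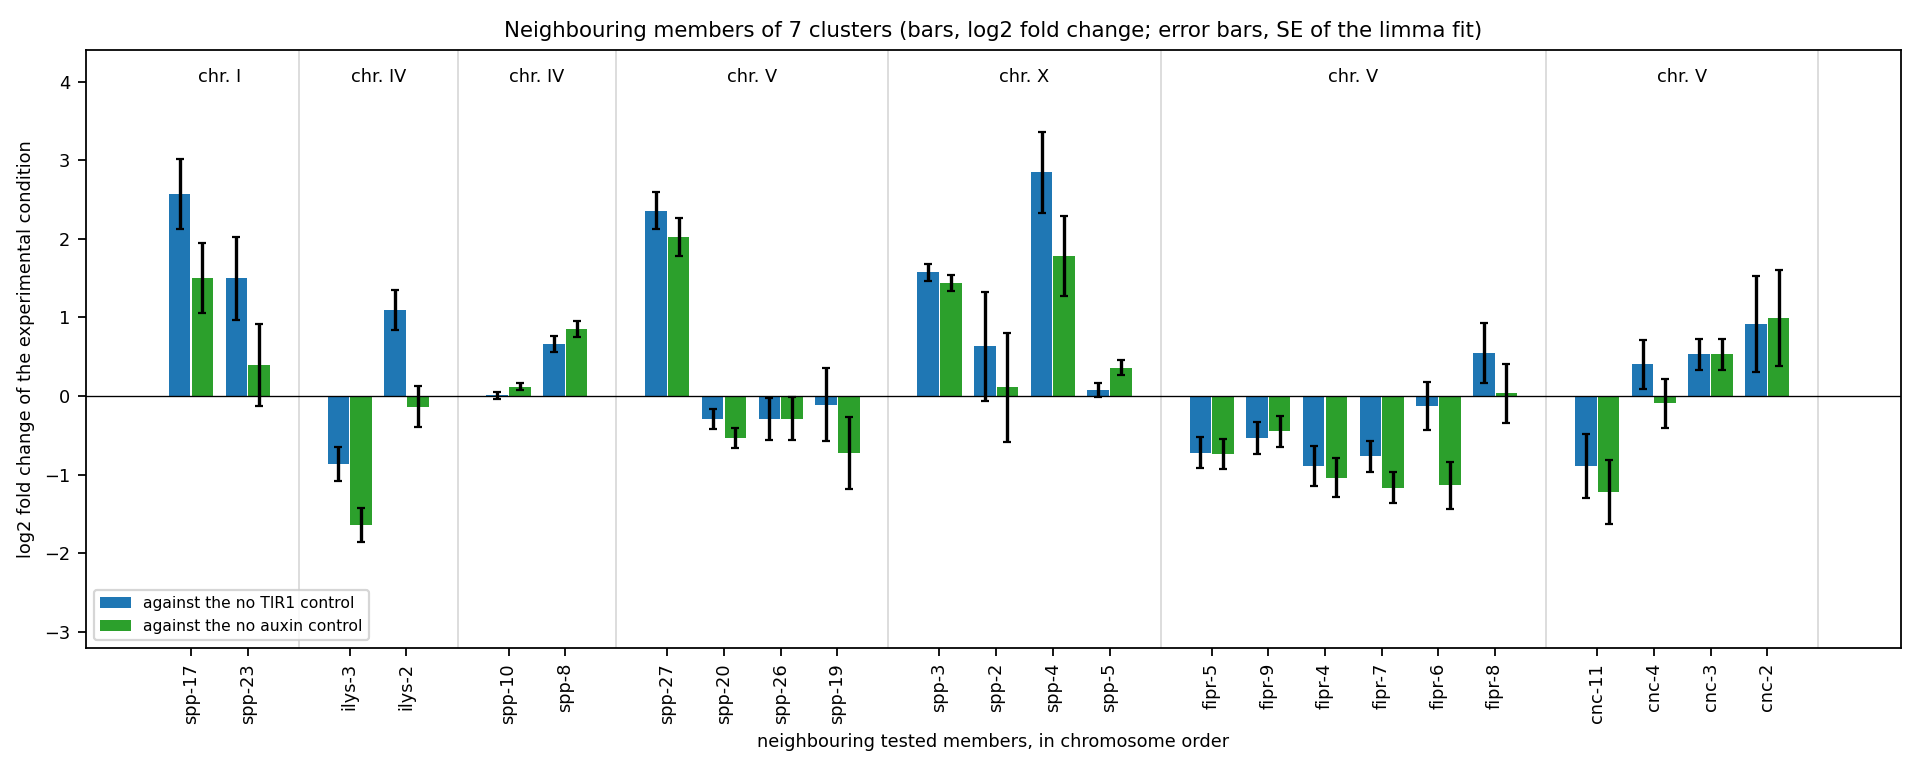
Log2 fold change (vertical axis) of neighbouring tested members in 7 clusters, in chromosome order (horizontal axis), against the no TIR1 control (blue) and the no auxin control (green). Bars start at 0 and error bars are the SE of the limma fit. *spp-27* rises beside 3 neighbours that were not called. *ilys-3* and *ilys-2* have opposite signs against the no TIR1 control (-0.87 and 1.09), whereas both are negative against the no auxin control (-1.64 and -0.13).

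Other antimicrobial effectors were taken from a list of lys lysozymes, thaumatin-like thn genes and *nlp-24* to *nlp-34*, of which 19 of 27 were tested. Against the no TIR1 control 6 rose and 2 fell, and against the no auxin control 4 rose and 1 fell. The lysozymes *lys-1* (1.29 and 1.41), *lys-2* (1.33 and 1.48) and *lys-8* (0.60 and 0.70) and the thaumatin-like gene *thn-2* (2.41 and 1.41) rose against both, and *thn-1* (-1.16 and -1.56) fell. Among 28 tested regulators of antimicrobial genes, 0 were called against the no TIR1 control by limma, edgeR or DESeq2 (11 had an unadjusted p-value under 0.05), and 1 against the no auxin control, the intestinal GATA factor gene *elt-2* (0.63 ± 0.16, adjusted p = 0.0047).

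Depth and cell markers moved with the experimental condition in several ways. Reads on genes numbered 3989669 in the experimental replicate 5, 11810704 to 15585703 in the other experimental libraries and 6249223 to 12680810 in the controls. Ribosomal RNA made up 21.4% of the experimental replicate 5 and 1.78% to 7.07% of the other libraries. Transcripts of *daf-16* itself were 7762 to 9024 in all 20 libraries and were not called, and the degron acts on the protein, which was not measured here. Summed intestinal markers were 4456 to 5967 in the controls and 9113 to 10930 in the experimental libraries, with 6 of 8 tested markers called higher against each control and none listed at 0. Since whole animals were sequenced, more cells of a type and more RNA per cell cannot be told apart. Pharyngeal markers were 29140 to 38740 in the controls and 28250 to 30960 in the experimental libraries, neuronal markers 25510 to 29090 and 23800 to 24930, and hypodermal markers 1468 to 2356 and 1853 to 2424. No pharyngeal or neuronal marker was called in either comparison. At a limma adjusted p under 0.05 without the fold cutoff, 4 of 8 pharyngeal markers were lower in each comparison. Of 8 neuronal markers, 5 and 4 were lower, and 0 of either list were higher. Of 8 hypodermal markers, 4 were called higher against the no TIR1 control and 3 relative to the no auxin control. The median log2 fold changes of the 8 were 1.29 and 1.05. Without the fold cutoff, 4 of the 8 were higher and 1 was lower in each comparison (limma adjusted p under 0.05). In the no TIR1 control, no auxin control and experimental condition, *elt-3* had means of 503.2, 527.3 and 431.1. Those of *grd-10* were 960.6, 759.8 and 832.8, and those of *col-19* were 23.4, 65.2 and 404.4. Summed sperm markers were 1.98 to 50.4 in the controls and 36.1 to 52.6 in the experimental libraries, and 3 of the 5 tested were called higher in each comparison. The part of the intestinal, pharyngeal, neuronal, hypodermal and sperm markers in the members' changes was not tested.

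Transcripts of oocytes and yolk also rose. The sum of 10 oocyte markers was 2197 to 4319 in the controls and 3944 to 9366 in the experimental libraries, with 10 and 9 of 10 called higher, and that of 5 yolk genes of the adult intestine was 0.99 to 12430 and 7482 to 47160. With the log2 of the oocyte sum as a covariate in the limma fit, 8 members were called against the no TIR1 control and 11 relative to the no auxin control, of which 7 and 9 were among those called without it. Calls among all genes tested also went down with the covariate, from 1568 to 636 and from 1517 to 680. Called against both controls with and without the covariate were *spp-3* (1.59 and 1.45), *spp-14* (1.60 and 1.48), *spp-27* (3.14 and 2.74), *spp-11* (-2.28 and -2.18), *spp-29* (-1.92 and -1.58) and *ilys-3* (-1.42 and -2.15). Calls were lost against both for *ilys-5* (1.42 and 0.68), *spp-4* (1.48 and 0.53), *spp-17* (0.77 and -0.14), *spp-1* (0.74 and 0.54), *fipr-3* (-0.26 and -0.23), *fipr-4* (-0.78 and -0.94) and *fipr-5* (-0.18 and -0.24). Among members called against a single control, *spp-15* (-0.89) and *cnc-6* (-1.06) kept their call and the other 7 lost it, at -0.46 for *abf-2*, 0.92 for *ilys-2*, -0.84 for *spp-21*, 0.75 for *spp-23*, -1.58 for *cnc-11*, -0.21 for *fip-1* and -1.39 for *fipr-6*. Called with the covariate alone were *fipr-26* against both controls (-2.50 and -2.30) and *spp-5* against the no auxin control (0.61). For *spp-8* (0.49 and 0.69) and *fipr-7* (-0.74 and -1.14) they were lost against the no TIR1 control. The covariate itself differs between the groups, and the SE of each member rose with it. For *ilys-5*, *spp-4*, *spp-17*, *spp-23*, *fipr-3*, *fipr-5* and *fip-1* the fold change moved towards 0. Against the no TIR1 control, that of *fipr-3* went from -1.10 to -0.26. The value of *abf-2* in this comparison was -0.64 ± 0.17 without and -0.46 ± 0.30 with the covariate. For *spp-1*, *fipr-4*, *ilys-2* and *spp-21* the fold change moved little and the SE grew. That of *spp-1* was 0.84 ± 0.18 without and 0.74 ± 0.32 with the covariate against the no TIR1 control. For *fipr-6* and *cnc-11* the fold change was farther from 0 with the covariate, and the SE of *fipr-6* went from 0.30 to 0.53.

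**Figure D5:**
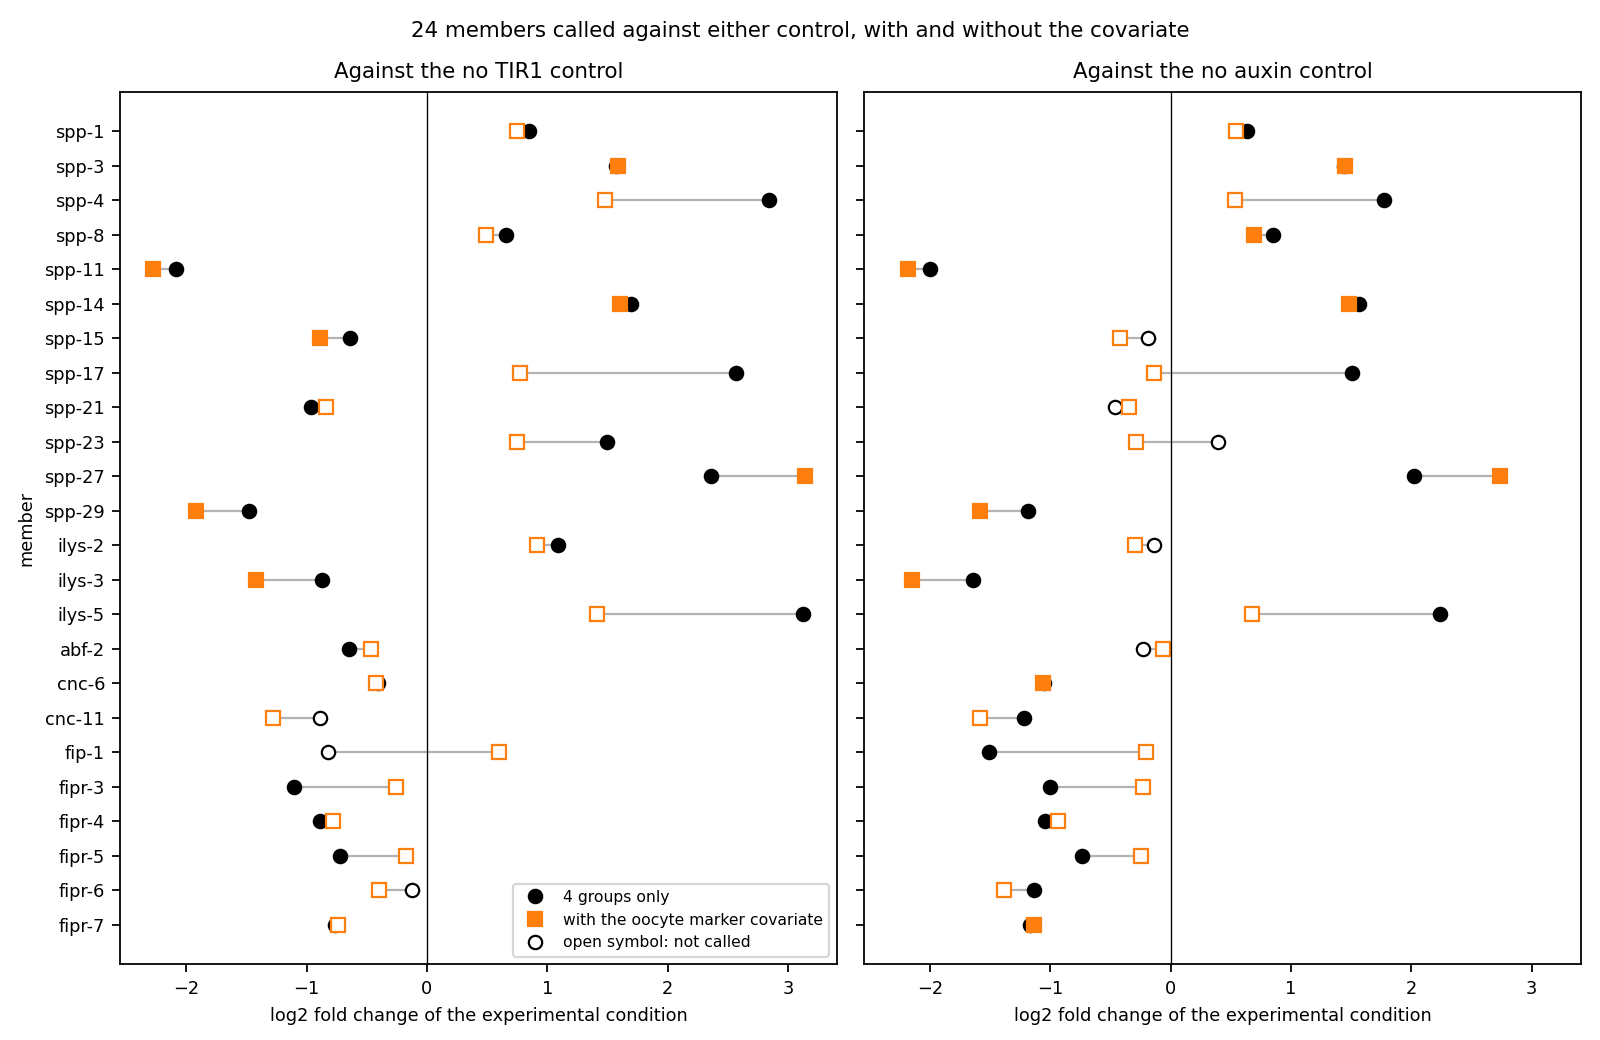
Log2 fold change (horizontal axis) of the 24 members called against either control, without (black circles) and with (orange squares) the log2 oocyte marker sum as a covariate, against each control. Open symbols were not called. *spp-3*, *spp-14* and *spp-11* hardly move, whereas *ilys-5*, *spp-17* and *spp-4* shift towards 0.

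The remaining 29 members were below the count minimum. Of these, 8 were at 0 in all 20 libraries (6 fipr and 2 fip genes), and none of the 29 had more than 8 reads in any library. A count of 0 allows up to 3 reads, which equalled 1.83 to 8.73 normalized counts depending on the library, and covers counting error only.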

How the data were processed

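RNA-seq of 20 libraries of whole dauers was analysed, with groups taken from the sample labels. Reads were handled by the authors on Galaxy with FastQC, Trimmomatic, STAR (genome release WS284) and featureCounts, and normalized with DESeq2. Tool versions, the strand setting and the treatment of reads that map to several places are not given in the sources used here. The signal deposited by the authors is a normalized count per gene and library, that is reads over the size factor DESeq2 gave that library. Dividing each column by the value of 1 read gave whole reads for 100% of values (within 0.001).

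Members and lists were chosen with earlier results of these data known. Genes with a mean of at least 2 were tested with limma 3.58.1 (R 4.3.3, trended variance) on log2(normalized count + 1), with 1 mean per group and Benjamini-Hochberg adjustment over all 17090 genes. The limma fits were tested on simulated counts drawn independently for each library. The simulation held no replicate or cell marker effect, so it does not cover such effects. Fold changes are on this scale, which understates those of low genes. Named were members called in any comparison and, in each family, the 2 highest by mean. Alternatives, among them edgeR 4.0.16 and DESeq2 1.42.0 on the recovered reads, are given in the closing section. Positions come from the WBcel235 gene annotation. Replicates are the authors' biological replicates, and floors cover counting error only.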

Additional observations from a re-analysis of the deposited data

Results flagged for a closer look

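In 13 members the effect of 5-Ph-IAA with TIR1(F79G) differed from its effect without it, by the interaction term of the limma fit. The difference of log2 fold changes was positive for *cnc-3* (0.95), *ilys-5* (1.85), *spp-1* (0.85), *spp-3* (1.53), *spp-4* (2.2), *spp-8* (0.75), *spp-14* (1.92) and *spp-27* (2.18). It was negative for *cnc-6* (-0.81), *fipr-7* (-1.52), *ilys-3* (-1.06), *spp-11* (-2.03) and *spp-29* (-1.2). With the log2 oocyte marker sum as a covariate, *ilys-3*, *spp-3*, *spp-11*, *spp-14*, *spp-27* and *spp-29* kept the interaction call. It was lost for *cnc-3* (0.69), *cnc-6* (-0.82), *fipr-7* (-1.49), *ilys-5* (0.05), *spp-1* (0.74), *spp-4* (0.77) and *spp-8* (0.57). edgeR and DESeq2 did not call the interaction of *spp-4*. With 0.5 in place of 1 added before taking logs, limma called neither *ilys-5* nor *spp-4*. For *cnc-3*, 5-Ph-IAA had a log2 fold change of -0.42 without TIR1(F79G) and 0.53 with it, neither of which was called.

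Among 132 groups of 5 libraries (33 named members in 4 groups), 3 held a library far from the other 4, and chance alone marks about 1 group in 20. In the no auxin control, *abf-2* was 65.7 in replicate 2 and 90.4 to 95.5 in the others, and *spp-4* was 8 in replicate 5 and 1 to 2 in the others. In the no TIR1 control, *spp-27* was 26.6 in replicate 2 and 36.3 to 38.6 in the others.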

How the results depend on the processing

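Counts of called members moved by over 1.5 times in few settings. With the oocyte marker covariate, calls among all genes went from 1568 to 636 against the no TIR1 control, from 1517 to 680 against the no auxin control and from 1151 to 482 in the interaction. In that fit, 8, 11 and 6 members were called, in place of 20, 19 and 13. *spp-17* turned from 1.51 to -0.14 against the no auxin control (limma adjusted p = 0.96). A fold change of at least 2 left 11 calls against the no TIR1 control, and an adjusted p under 0.01 left 7 in the interaction. For TIR1(F79G) alone, 0 calls became 1 with DESeq2 and 3 with a replicate block (*fipr-7*, *spp-9* and *spp-21*). Leaving out 1 library at a time gave 19 to 21 calls against the no TIR1 control, 16 to 19 against the no auxin control (16 without the experimental replicate 5), 0 to 0 for 5-Ph-IAA alone, 0 to 1 for TIR1(F79G) alone and 8 to 15 in the interaction. Quantile normalization lowered the share of higher calls among all genes from 73.9% to 63.4% against the no TIR1 control, with 23 and 19 members called. It reversed no call of a named member. The labels do not say that a replicate number marks a shared culture, and same-numbered libraries were not treated as pairs in the main fit. Their deviations over genes correlated weakly, with a median r of 0.05 (-0.098 to 0.25, over 0.1 in 3 of 30 pairs). That median was above the -0.012 for different numbers, so shared conditions between same-numbered libraries were not excluded. As a hint from the data, *spp-9* and *spp-21* were highest in replicate 4 and lowest in replicate 2 of all 4 groups, *spp-10* and *spp-14* were highest in replicate 4 and *spp-11* in replicate 5. With the block, 22, 20, 0, 3 and 14 members were called against the no TIR1 control, against the no auxin control, for 5-Ph-IAA alone, for TIR1(F79G) alone and in the interaction. Calls of *spp-4*, *spp-17*, *spp-23*, *cnc-11* and *fip-1* rest on few reads, and depth limits them most in the experimental replicate 5, where 3 reads equal 8.73 normalized counts.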
